A study of Mus musculus with 29 samples.

Results

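This comparison set 10 aortic arch libraries from mice given a sclerostin antibody (Scl-Ab) against 9 libraries from mice given vehicle, out of 29 libraries in the series. The libraries were chosen by their labelled treatment, and no measured value entered the choice. The Scl-Ab mice were male C57BL/6 mice lacking apolipoprotein E (ApoE KO) that carried a subcutaneous pump with angiotensin II (AngII, 15.27 mg/mL, delivered at 0.11 µL/hr) and received weekly Scl-Ab injections of 10 mg/kg over 4 weeks (numbers 10 to 19 in the titles). The vehicle mice had the same genotype, sex, strain and AngII pump and received vehicle injections (numbers 1 to 9). Both groups are therefore ApoE KO and AngII-infused, and Scl-Ab without AngII or in wild-type mice was not measured in these libraries. The 10 libraries labelled wild type (WT), from mice with vehicle in pump and injections, are given beside the results as levels only. The labels give 14 weeks as the age, and the pumps were implanted at about that age. The study addressed the cardiovascular safety of romosozumab, an antibody of this kind given for osteoporosis. The aortic lumen was flushed and fat on the outside scraped off before freezing. Some mice of both groups died early of aortic rupture per the labels, so the libraries come from survivors. The labels do not state that each library came from its own animal, so p-values measure the spread between these libraries.

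Sost encodes sclerostin, a secreted protein that binds the co-receptors LRP5 and LRP6 and lowers Wnt signalling. It is made by osteocytes and also by vascular smooth muscle cells, and antibodies against it raise bone formation. Angiotensin II infusion in mice without apolipoprotein E is a model of atherosclerosis and aortic aneurysm. Vessels also hold a circadian clock, in which ARNTL (also called BMAL1) with CLOCK or NPAS2 turns on genes through E-box sequences. PER, CRY, NR1D1 and NR1D2 proteins feed back on them, and DBP, TEF, HLF and NFIL3 act on D-box sequences downstream.

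Values are the deposited FPKM-like values, which are scaled by gene length. Fold changes, standard errors (SE) and adjusted p-values are from limma on log2(value + 1), where a fold understates the change of a low gene. Tested genes reached a value of 1 in 9 or more of the 29 libraries, and those with an adjusted p under 0.05 were called. The sum of values was 496126 to 640082 in Scl-Ab libraries and 522356 to 678907 in vehicle libraries, and a value of 1 in a 2 kb gene stood for 31.8 to 43.3 fragments over these 19 libraries. Scl-Ab replicate 17, the shallowest at 31.8 fragments, lay far from the rest on the second principal component, and vehicle replicate 1 was farthest on the first. Of the contractile smooth muscle markers, 21 of 21 were tested and none was at 0 in any of the 19 libraries. Apoe checked the knockout, with a median of 8.33 in Scl-Ab libraries, 7.08 in vehicle libraries and 284 in WT libraries.

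With Scl-Ab, 309 of 13510 genes tested changed (2.29%), of which 100 were higher (0.740%) and 209 lower (1.55%). The changes were mostly small: the median size was 1.30-fold, and a change of 2-fold or more was reached by only 5 higher and 15 lower genes. Among called genes, the largest changes fell on genes of the circadian clock and on genes that respond to glucocorticoids. Among them Dbp and Per3 rose most, and Zbtb16, Fkbp5 and Arntl fell most apart from the gene model Gm20412. Some genes that did not pass had larger fold changes, such as Nppa of heart muscle (log2 2.52). Of the 660 genes on 41 lists of pathways and cell types, 576 were tested and 30 were called. An unadjusted p under 0.05 was found for 2659 genes (19.7%), and the median log2 fold change over all genes tested was -0.01. Of all genes tested 47.9% lay above 0 and 52.1% below.

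**Figure D1:**
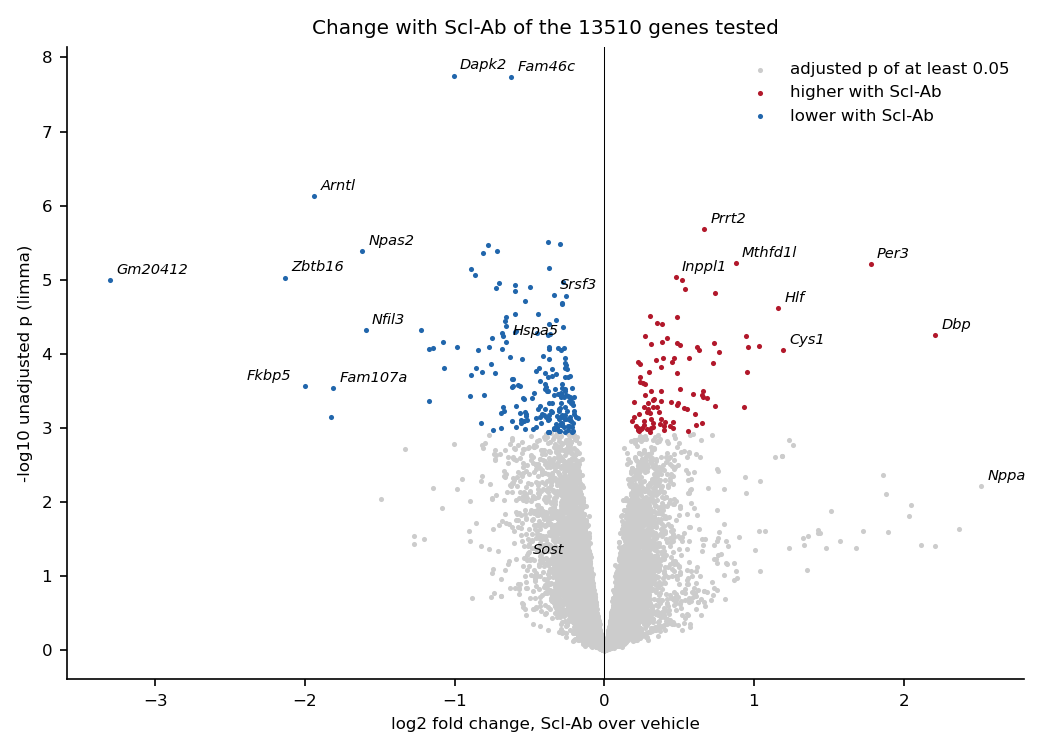
Change of each of the 13510 genes tested, with the log2 fold change of Scl-Ab over vehicle on the horizontal axis and -log10 of the unadjusted limma p on the vertical axis. Red points are the 100 genes called higher with Scl-Ab and blue points the 209 called lower; clock and glucocorticoid-responsive genes hold most of the outer positions among the called genes.

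The split between directions depended on the scaling of the libraries. As deposited, 32.4% of calls were higher. With equal totals per library 93 genes were called, of which 54.8% were higher, and with median-ratio scaling 365 were called, of which 46.3% were higher. The median log2 fold change of all genes was 0.02 with equal totals and 0.01 with median-ratio scaling. The called genes also differed in base composition: transcripts of the genes called higher had a median GC content of 55.7%, those of the genes called lower 47.6%, and those of all genes tested 50.6%. With the trend of each library with GC content removed, an alternative added after the data were seen, 295 genes were called, 209 of them also among the 309, and 42.7% were higher.

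The number of calls also rested on single libraries. It was 113 without vehicle replicate 6, 122 without vehicle replicate 2, 142 without Scl-Ab replicate 18, 150 without Scl-Ab replicate 16, 154 without Scl-Ab replicate 15, 175 without Scl-Ab replicate 12, 188 without vehicle replicate 5, 193 without Scl-Ab replicate 14 and 194 without vehicle replicate 9. All 309 genes kept their direction in each of the 19 fits that left out 1 library. They were called on these same libraries, so this is no separate check of their direction.

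The positive arm of the clock was lower with Scl-Ab. Of 5 clock activators tested, 3 were called, all lower, against 2.29% called over all genes tested. The median log2 fold change of the list was -0.63. Arntl (GRCm38 chromosome 7, 113207465 to 113314126) ranged from 0.90 to 4.94 in Scl-Ab libraries with a median of 1.56, and from 4.61 to 22.7 in vehicle libraries with a median of 10.0. Of the 10 Scl-Ab libraries, 9 lay below every vehicle library. Arntl fell by 1.94 on the log2 scale (SE 0.27, limma adjusted p = 0.00335). Npas2, a partner of ARNTL, ranged from 0.736 to 2.55 with Scl-Ab (median 1.11) and from 1.84 to 16.8 with vehicle (median 6.30), and it fell by 1.62 (SE 0.26, limma adjusted p = 0.00583). Clock, the other partner, was 5.44 to 11.3 with Scl-Ab (median 7.89) and 8.87 to 21.3 with vehicle (median 13.6), and it fell by 0.63 (SE 0.13, limma adjusted p = 0.0174), a call that ended with equal totals per library. Rora, a nuclear receptor that activates Arntl, did not pass, with a log2 fold change of -0.21.

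Of 10 clock repressors tested, 3 were called, all higher, against 2.29% called over all genes tested. The median log2 fold change was 0.65. Per3 (chromosome 4, 151003652 to 151044665), a period gene, was 9.70 to 42.1 in Scl-Ab libraries (median 20.3) and 2.10 to 11.9 in vehicle libraries (median 4.68), with 8 Scl-Ab libraries above every vehicle library. It rose 3.44-fold (log2 1.78, SE 0.29, limma adjusted p = 0.00699). Bhlhe41, a repressor that binds E-boxes, was 7.81 to 15 with Scl-Ab (median 10.5) and 2.31 to 11.1 with vehicle (median 4.04), a 2.05-fold rise (limma adjusted p = 0.0148). Nr1d2, which encodes the nuclear receptor REV-ERB beta, was 38.8 to 56.0 with Scl-Ab (median 51.8) and 17.9 to 46.3 with vehicle (median 25.99), a 1.66-fold rise (limma adjusted p = 0.0148). The other members did not pass. Ciart, a repressor of CLOCK and ARNTL, had a log2 fold change of 1.26 (limma adjusted p = 0.0583), Per2 of 0.76, Bhlhe40 of 0.56, Cry1 of 0.38, Nr1d1 of 0.29, Cry2 of 0.18 and Per1 of 0.02. The 3 period genes thus gave unequal values: Per1 was 7.75 to 41.8 with Scl-Ab and 9.02 to 40.2 with vehicle, nearly the same span in both groups.

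Of 7 output genes of the clock, 3 rose and 1 fell, against 2.29% called over all genes tested. Dbp (chromosome 7, 45705088 to 45710203), a transcription factor of the PAR bZIP family, was 78.8 to 187 in Scl-Ab libraries (median 151) and 7.97 to 110 in vehicle libraries (median 37.7). Its 10 Scl-Ab libraries all lay above the vehicle median and 8 of them above every vehicle library. Dbp rose 4.63-fold (log2 2.21, SE 0.43, limma adjusted p = 0.0137), a call that ended when only the 16 libraries whose title digits occur in both groups were used. Hlf, of the same family, was 3.47 to 9.02 with Scl-Ab (median 7.16) and 1.13 to 5.83 with vehicle (median 2.11), a 2.24-fold rise (limma adjusted p = 0.00994). Tef, the third of the family, was 46.7 to 93.3 with Scl-Ab (median 70.1) and 17.3 to 68.9 with vehicle (median 37.4), a 1.94-fold rise (limma adjusted p = 0.0215). Without vehicle replicate 2 or 6 Tef no longer passed, with a limma adjusted p of 0.0505 without replicate 2. Nfil3, a repressor that competes with them for D-boxes, was 2.63 to 7.37 with Scl-Ab (median 4.43) and 4.66 to 34.3 with vehicle (median 20.8), and it fell by 1.59 on the log2 scale (SE 0.31, limma adjusted p = 0.0136). Usp2, Wee1 and Nampt did not pass (log2 fold changes of 0.14, -0.06 and -0.35).

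**Figure D2:**
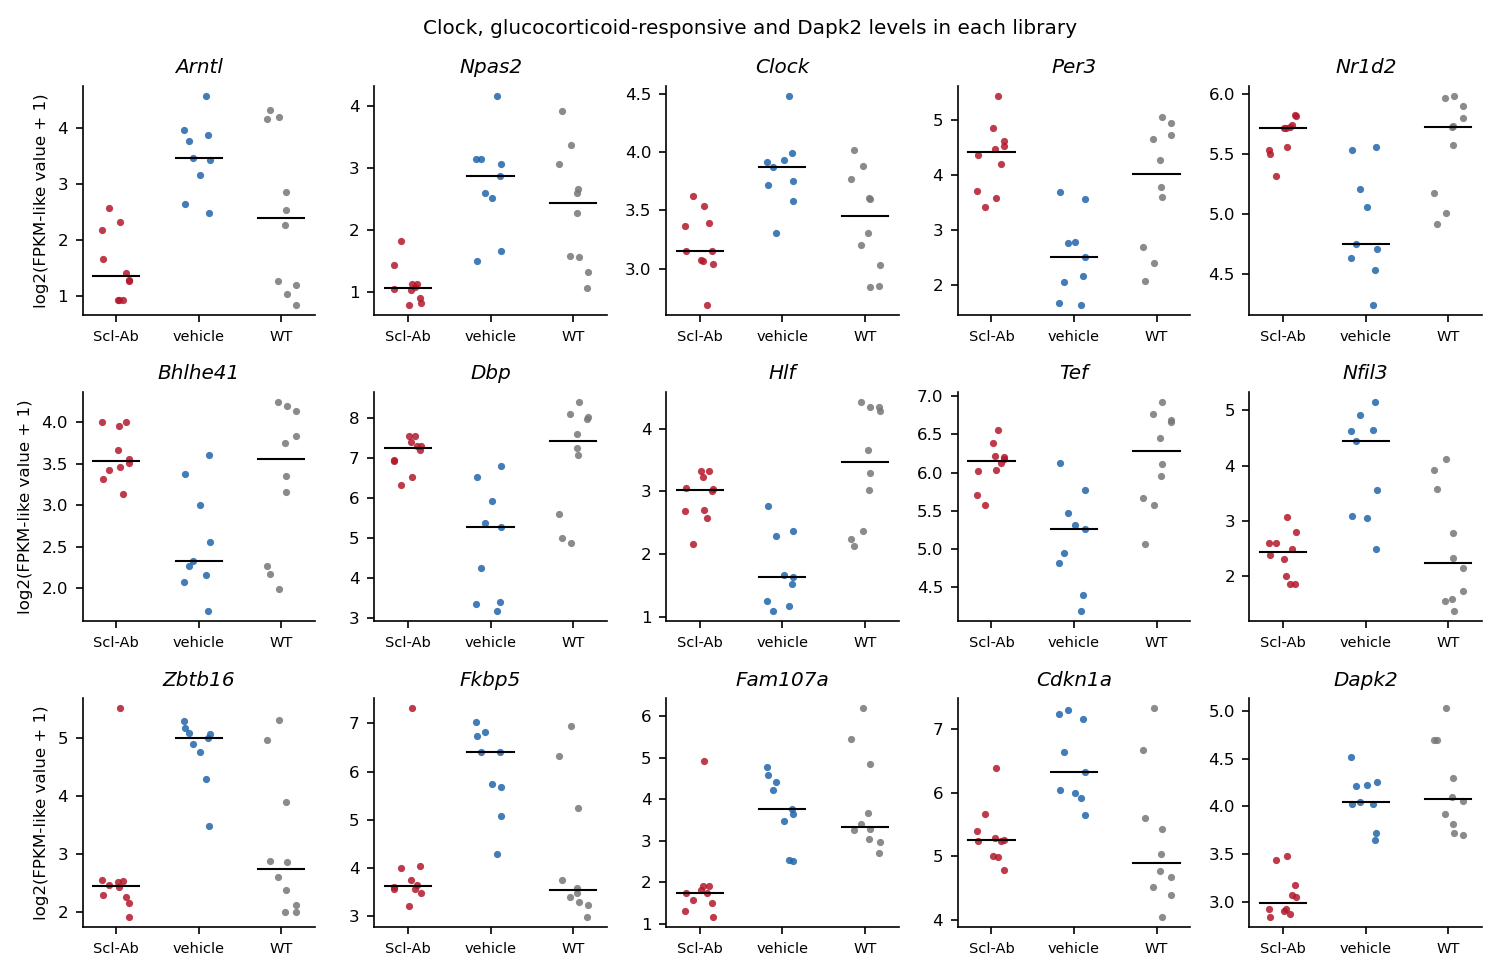
Level of 15 called genes in each library as log2(FPKM-like value + 1), with 1 point per library and a bar at the group median, for Scl-Ab (red), vehicle (blue) and WT (grey). In the Scl-Ab group Arntl, Npas2 and Nfil3 sit low and Dbp, Per3 and Hlf high, while the WT libraries span both levels; for Zbtb16, Fkbp5 and Fam107a a single Scl-Ab library, replicate 10, lies above every vehicle library and the other Scl-Ab libraries lie below every one.

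The promoters of 5 of these genes are shown because they carry the sequences through which the clock proteins are known to act. Each runs 5′ to 3′ on the gene's strand from 250 bases before to 50 after the RefSeq start (GRCm38.p6), with matches in capitals: the E-box CACGTG in Tef (chr15:81802423-81802722, plus strand) and Bhlhe41 (chr6:145865371-145865670, minus strand), the D-box TTATGTAA in Per3 (chr4:151044616-151044915, minus strand), and TAGGTCA, the core bound by ROR and REV-ERB receptors, on either strand in Arntl (chr7:113207261-113207560, plus strand) and Nfil3 (chr13:52980990-52981289, minus strand).
Tef: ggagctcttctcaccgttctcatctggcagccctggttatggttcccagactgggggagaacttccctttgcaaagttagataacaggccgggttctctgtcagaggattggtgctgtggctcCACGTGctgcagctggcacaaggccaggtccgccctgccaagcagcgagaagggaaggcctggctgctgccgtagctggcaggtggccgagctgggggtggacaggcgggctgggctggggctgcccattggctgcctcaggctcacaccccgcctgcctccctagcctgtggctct
Bhlhe41: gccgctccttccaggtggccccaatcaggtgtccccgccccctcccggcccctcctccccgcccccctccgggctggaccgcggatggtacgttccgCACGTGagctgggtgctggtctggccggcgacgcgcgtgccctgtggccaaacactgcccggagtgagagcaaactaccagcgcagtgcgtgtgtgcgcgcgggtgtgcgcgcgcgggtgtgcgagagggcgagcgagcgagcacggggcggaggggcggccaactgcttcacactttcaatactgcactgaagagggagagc
Per3: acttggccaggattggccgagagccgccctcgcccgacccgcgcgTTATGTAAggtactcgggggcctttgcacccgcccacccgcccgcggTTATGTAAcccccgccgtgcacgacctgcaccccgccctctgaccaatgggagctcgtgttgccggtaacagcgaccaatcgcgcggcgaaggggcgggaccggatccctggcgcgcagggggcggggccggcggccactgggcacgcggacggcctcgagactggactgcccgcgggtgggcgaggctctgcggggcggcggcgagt
Arntl: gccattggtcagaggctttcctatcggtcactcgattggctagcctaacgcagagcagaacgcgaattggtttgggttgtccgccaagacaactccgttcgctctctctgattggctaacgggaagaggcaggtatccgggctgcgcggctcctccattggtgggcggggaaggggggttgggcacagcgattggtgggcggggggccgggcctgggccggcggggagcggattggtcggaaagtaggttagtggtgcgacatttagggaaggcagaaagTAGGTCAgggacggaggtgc
Nfil3: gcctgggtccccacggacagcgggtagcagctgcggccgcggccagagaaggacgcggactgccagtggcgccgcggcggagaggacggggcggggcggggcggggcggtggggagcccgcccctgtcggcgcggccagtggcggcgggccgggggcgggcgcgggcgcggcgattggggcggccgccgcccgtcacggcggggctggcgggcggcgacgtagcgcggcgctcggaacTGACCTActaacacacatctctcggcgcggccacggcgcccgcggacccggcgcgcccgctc

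A further RefSeq start of Tef also held CACGTG. In these windows the Tef match starts 127 bases before the start, the Bhlhe41 match 153 before, the Per3 matches 205 and 158 before, the Nfil3 match 12 before, and the Arntl match 30 after. All motifs were searched on both strands, and 9933 of the 13510 genes tested had a promoter in the RefSeq table. CACGTG was found for 22 of 81 genes called higher (27.2%), 20 of 152 called lower (13.2%) and 11.6% of all genes tested. The promoters also differed in base composition, with a median GC content of 64.7% for genes called higher, 61.3% for genes called lower and 60.7% for all tested, and the part of GC content in the E-box shares was not tested. TAGGTCA was found for 1 of the 81 genes called higher, 5 of the 152 called lower and 2.21% of all tested. The D-box, searched as TTATGTAA or TTACGTAA, was found for 3 of the 81, 0 of the 152 and 0.815% of all tested. No window of Dbp, Hlf, Nr1d2, Npas2 or Clock held any of these letters, which says nothing of sites elsewhere. CACGTG was also found for Per1, Cry1, Ciart, Sgk1 and Klf15, which were not called, and for Fkbp5, which was called lower. The half-site pair of the glucocorticoid response element, searched as ACANNNTGT, was found for 2 of the 81 genes called higher, 8 of the 152 called lower (5.26%) and 5.08% of all tested. A match is a description of the sequence and not a measured binding site.

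The clock genes were summarised per library. A clock index, the mean log2 level of 8 genes (Dbp, Tef, Hlf, Per1, Per2, Per3, Nr1d1 and Nr1d2) minus that of 4 (Arntl, Npas2, Clock and Nfil3), was 1.76 to 3.90 in Scl-Ab libraries and -1.22 to 2.20 in vehicle libraries. Its members did not all vary alike: in Scl-Ab replicate 17 Per3 was highest of the group at 42.1 while Nr1d1 was lowest at 39.5. Only vehicle replicates 3 and 4, at 2.08 and 2.20, reached the Scl-Ab range. The index also varied in WT, from 0.12 to 4.34, a span that holds the whole Scl-Ab range. Each title opens with 4 digits that the labels leave unexplained. In WT the last 2 of them run from 1 to 10, and Dbp rose and Arntl fell along them. For Dbp, Pearson's r was 0.92 (permutation p = 8.00e-05, adjusted p = 0.00024) and Spearman's rho 0.94 (permutation p = 0.0002, adjusted p = 0.00042), with r = 0.88 without the 2 libraries farthest from the median digit (n = 10). For Arntl, r was -0.96 (permutation p = 0.0001, adjusted p = 0.00024), rho -0.95 (permutation p = 0.00022, adjusted p = 0.00042) and r without the 2 libraries -0.97. The labels give 9 WT mice for these 10 libraries, so 2 libraries may share a mouse, and the permutation p-values treat all 10 as independent. The 6 genes tested in this way were Dbp, Per3, Arntl, Npas2, Fkbp5 and Zbtb16, and all 6 had an adjusted p under 0.05. They were chosen with earlier results of these data known, and the adjustment covers only these 6. Fkbp5 (r = -0.83, rho = -0.94) and Zbtb16 (r = -0.77, rho = -0.72), of the glucocorticoid-responsive list, fell along the WT digits as Arntl did.

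In the ApoE KO groups the digits fall into 12 to 15 and 27 to 33, so no correlation was computed there. Among digits 12 to 15 the index was 1.76 to 2.88 in 4 Scl-Ab libraries and -0.46 to 2.20 in 4 vehicle libraries. Among digits 27 to 33 it was 3.07 to 3.90 in 6 Scl-Ab libraries and -1.22 to 1.11 in 5 vehicle libraries, which did not overlap. Within digits 27 to 33, 93 genes were called, while within 12 to 15 the limma fit called 0, with 890 genes at an unadjusted p under 0.05. The direction of all 309 genes was the same within each range as over both, though both ranges entered the fit that called these genes. Dbp had a log2 fold change of 2.59 (SE 0.39) within 27 to 33 and 1.67 (SE 0.83) within 12 to 15, and Arntl of -2.55 (SE 0.22) and -1.06 (SE 0.38). With the range of digits as a covariate 348 genes were called, 296 of them among the 309. Whether the effects differ between the ranges was not tested.

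**Figure D3:**
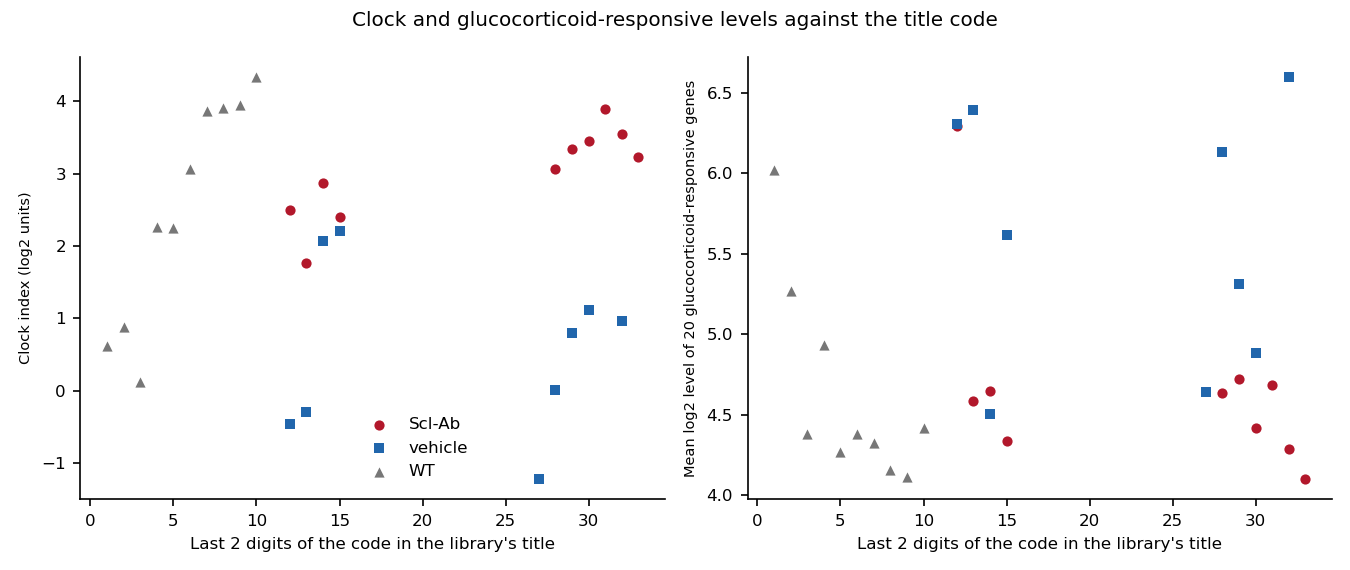
Clock index (left) and mean log2 level of the 20 glucocorticoid-responsive genes (right) against the last 2 digits of the code in each library's title, for Scl-Ab (red circles), vehicle (blue squares) and WT (grey triangles). The Scl-Ab index lies between 1.76 and 3.90 and the vehicle index between -1.22 and 2.20, and along the WT digits the index reaches 4.34.

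With the clock index as a covariate, limma called 0 genes, and 621 had an unadjusted p under 0.05. The index is built from genes of this comparison and differs between the groups, so what goes with the index and what goes with Scl-Ab cannot be told apart in this fit.

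Glucocorticoid-responsive genes were lower with Scl-Ab: of 20 tested, 5 fell, against 2.29% called over all genes tested. Of the 20, 19 had a log2 fold change below 0, against 52.1% of all genes tested, and the median was -0.73. Zbtb16 (chromosome 9, 48654297 to 48836222), a zinc finger repressor induced by glucocorticoids, was 2.75 to 44.8 in Scl-Ab libraries (median 4.43) and 10.1 to 38.4 in vehicle libraries (median 31.2). Of the 10 Scl-Ab libraries 9 lay below every vehicle library, and replicate 10 lay above all of them. Zbtb16 fell by 2.13 on the log2 scale (SE 0.36, limma adjusted p = 0.00709). Fkbp5 (chromosome 17, 28399094 to 28517527), which encodes a co-chaperone of the glucocorticoid receptor, was 8.23 to 157 with Scl-Ab (median 11.4) and 18.6 to 129 with vehicle (median 83.5). Again 9 Scl-Ab libraries lay below every vehicle library and replicate 10 above them, and Fkbp5 fell by 2.00 (SE 0.45, limma adjusted p = 0.0279). Fam107a, an actin-associated protein induced by stress hormones, was 1.25 to 29.2 with Scl-Ab (median 2.34) and 4.72 to 26.2 with vehicle (median 12.6), a fall of 1.81 (limma adjusted p = 0.0283). The WT libraries with title digits 1 and 10 had Zbtb16 at 39.1 and 6.27, Fkbp5 at 123 and 8.91, and Fam107a at 71.6 and 8.73. The relation of Fam107a with the digits was not tested.

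Errfi1, a feedback inhibitor of the EGF receptor, was 11.3 to 75.3 with Scl-Ab (median 18.8) and 16.7 to 214 with vehicle (median 64.8), and it fell by 1.83 (SE 0.46, limma adjusted p = 0.0413). Its call ended in 15 of the 19 fits that left out 1 library, with a limma adjusted p of up to 0.0886. Cdkn1a, the cell cycle inhibitor p21, was 26.7 to 82.4 with Scl-Ab (median 37.1) and 49.1 to 155 with vehicle (median 79.4), a fall of 1.14 (limma adjusted p = 0.0148). The WT libraries with title digits 1 and 10 had Errfi1 at 142 and 19.5 and Cdkn1a at 159 and 15.6. The relation of these 2 genes with the digits was not tested. Members that did not pass included Ddit4 (log2 fold change -1.49), Tsc22d3, which encodes the glucocorticoid-induced protein GILZ (-1.09), Klf9 (-0.67) and Sgk1 (-0.51), while the metallothioneins Mt1 and Mt2 (-0.29 and -0.55) overlapped widely between the groups.

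1 Scl-Ab library lay apart from the others for these genes. The mean log2 level of the 20 genes was 6.29 in Scl-Ab replicate 10 and 4.10 to 4.72 in the other Scl-Ab libraries, against 4.50 to 6.60 in vehicle libraries. Without replicate 10, 10 of the 20 genes were called, all lower, and the median log2 fold change was -0.90. The calls of Fkbp5 ended without Scl-Ab replicate 16 or 18 or vehicle replicate 2, 6 or 9, and those of Fam107a without Scl-Ab replicate 15 or 18 or vehicle replicate 2, 6 or 9. The Wilcoxon test, which uses ranks only, called 1 of the 20.

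Several genes outside the lists fell with some of the smallest p-values. Dapk2 (chromosome 9, 66158223 to 66272242), a calcium/calmodulin-regulated kinase linked to cell death and autophagy, was 6.16 to 10.2 in Scl-Ab libraries (median 6.96) and 11.5 to 21.8 in vehicle libraries (median 15.5). The groups did not overlap, and the WT libraries, at 12.01 to 31.5, lay above the Scl-Ab libraries too. Dapk2 fell by 1.01 (SE 0.11, limma adjusted p = 0.000125). Fam46c, a poly(A) polymerase, was 3.08 to 4.64 with Scl-Ab (median 3.58) and 4.92 to 7.43 with vehicle (median 6.32), a fall of 0.62 (SE 0.07, limma adjusted p = 0.000125). Leo1, a subunit of the PAF1 transcription elongation complex, was 2.20 to 5.14 with Scl-Ab (median 3.15) and 4.94 to 8.43 with vehicle (median 6.15), a fall of 0.77 (limma adjusted p = 0.00583). Rasl11a, a small GTPase, fell by 0.81 (limma adjusted p = 0.00583). In the WT libraries with title digits 1 and 10, Leo1 was 6.49 and 1.77, Rasl11a 19.6 and 5.92, and Dapk2 31.5 and 12.2. Fam46c went the other way, at 3.97 and 5.55, and the relation of these genes with the digits was not tested.

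Groups did not overlap for 19 genes in all (0.141% of those tested), 4 of them higher with Scl-Ab (0.0296%) and 15 lower (0.111%). The 4 higher were Inppl1, the lipid phosphatase SHIP2 (18.2 to 27.5 with Scl-Ab, 12.5 to 17.4 with vehicle), Mknk1, a kinase of the translation factor eIF4E (12.6 to 17.2 with Scl-Ab, 10.5 to 12.5 with vehicle), Csnk1e, the casein kinase that phosphorylates PER proteins (21.9 to 27.8 with Scl-Ab, 18.8 to 21.2 with vehicle), and Wrap53, a telomerase factor (3.87 to 4.95 with Scl-Ab, 2.87 to 3.71 with vehicle). Their rises were small, from 1.17-fold for Csnk1e to 1.39-fold for Inppl1. Among the 15 lower, Srsf3, a splicing factor, was 58.2 to 70.1 with Scl-Ab and 72.3 to 95.3 with vehicle, and Pno1, a ribosome assembly factor, was 14.0 to 18.4 with Scl-Ab and 19.03 to 24.7 with vehicle. Tbl1x, a corepressor subunit, was 25.98 to 32.8 with Scl-Ab and 33.7 to 41.2 with vehicle. Of the 19 genes 18 were called, and the other, Snu13, missed the threshold (limma adjusted p = 0.0529). With equal totals per library the groups of 8 genes did not overlap, and Pno1 and Bcap29 were no longer called. Without Scl-Ab replicate 10, groups did not overlap for 54 genes, a number that leaving out a library can only keep or raise.

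Among the 10 largest rises of called genes were some outside the clock lists. Cys1, which encodes the ciliary protein cystin, was 18.5 to 83.0 with Scl-Ab (median 35.0) and 9.92 to 25.3 with vehicle (median 15.7), a 2.29-fold rise (limma adjusted p = 0.0148). Mthfd1l, a mitochondrial enzyme of folate metabolism, was 1.46 to 5.16 with Scl-Ab (median 3.37) and 1.01 to 1.68 with vehicle (median 1.25), a 1.84-fold rise (limma adjusted p = 0.00699). Rasd2 (1.93-fold), a small GTPase, and Tmem200b (1.95-fold) also rose, and Prrt2, a synaptic membrane protein in neurons, rose 1.59-fold with one of the smallest p-values (limma adjusted p = 0.00583). These genes also varied in WT, where the libraries with title digits 1 and 10 had Cys1 at 22.9 and 57.9 and Mthfd1l at 0.752 and 3.44. Rasd2 was at 3.37 and 9.95 there, Tmem200b at 8.58 and 23.2, and Prrt2 at 5.86 and 9.62. Their relation with the digits was not tested.

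Among the 10 largest falls of called genes, and outside the clock and glucocorticoid lists, Slc45a3, a membrane transporter, was 4.09 to 9.06 with Scl-Ab (median 4.88) and 5.74 to 26.1 with vehicle (median 15.6), a fall of 1.22 (limma adjusted p = 0.0136). Slc25a34, a mitochondrial carrier, fell by 1.17 (limma adjusted p = 0.0148). Adamts15, a protease that cleaves versican and aggrecan, fell by 1.17 (limma adjusted p = 0.033) and was the only called gene among 21 matrix proteases and inhibitors. Its call ended in 7 of the 19 fits that left out 1 library. Over all genes tested 2.29% were called, so 1 call among these 21 says little about the list. In the WT libraries with title digits 1 and 10, Slc45a3 was 15.7 and 4.56, Slc25a34 46.2 and 12.5, and Adamts15 24.4 and 7.13. The relation of these genes with the digits was not tested. The forkhead factors Foxo1 and Foxo3, named after their values were seen, fell by 0.59 (limma adjusted p = 0.0074) and 0.61 (limma adjusted p = 0.0243). Foxo3 was 25.5 in Scl-Ab replicate 10, above every vehicle library, and 8.63 to 14.5 in the other Scl-Ab libraries.

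Of the 3 lists of the Wnt pathway, on which the antibody's target acts, 2 held no called gene and 1 held a single one, Dvl2, a share near the 2.29% called among all genes tested. Sost itself was 128 to 456 in Scl-Ab libraries (median 309) and 219 to 647 in vehicle libraries (median 381), with a log2 fold change of -0.52 (SE 0.26, limma adjusted p = 0.275). Of 10 Wnt target and feedback genes tested, 0 were called with limma, 1 had an unadjusted p under 0.05, and the median log2 fold change was 0.06. That gene was Nkd2, a feedback inhibitor that binds Dishevelled, at 3.77 to 6.62 with Scl-Ab (median 4.25) and 2.02 to 4.96 with vehicle (median 3.17; log2 fold change 0.43, SE 0.12, limma adjusted p = 0.0569). Axin2, a direct target of beta-catenin, was 0.737 to 2.46 with Scl-Ab (median 1.57) and 0.749 to 1.80 with vehicle (median 0.966), with a log2 fold change of 0.23 (SE 0.12, limma adjusted p = 0.301). Lef1, Tcf7, Notum, Lgr5, Rnf43, Sp5 and Tnfrsf19 were below the filter. Among 13 antagonists and LRP receptors 0 were called with limma and 3 had an unadjusted p under 0.05. Lrp5, Lrp6 and Lrp4, receptors of sclerostin, had log2 fold changes of -0.24, -0.02 and 0.21. Dvl2, a Dishevelled protein that relays the Wnt signal, was the only gene called among 22 Wnt ligands, Frizzled receptors and relays. It was 4.63 to 7.68 with Scl-Ab (median 5.60) and 3.34 to 4.98 with vehicle (median 3.98), a 1.25-fold rise (limma adjusted p = 0.0468), and its call ended in 14 of the 19 fits that left out 1 library.

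Among 18 genes of bone and cartilage formation and calcification, 1 rose, 1 fell and 16 did not pass, against 2.29% called over all genes tested. Of the 18, 16 lay above 0 and 2 below, and the median log2 fold change was 0.21. Of all genes tested 47.9% lay above 0. Sox9, the master factor of cartilage, was 2.00 to 6.84 with Scl-Ab (median 3.85) and 1.21 to 2.74 with vehicle (median 2.39), a 1.57-fold rise (limma adjusted p = 0.0307). Bmp6, a bone morphogenetic protein also made by endothelium, was 3.29 to 10.9 with Scl-Ab (median 8.41) and 9.49 to 22.2 with vehicle (median 12.9), a fall of 0.89 (SE 0.19, limma adjusted p = 0.0227). Both calls ended with equal totals per library, and the call of Sox9 also in 7 of the 19 fits that left out 1 library. Runx2, the master factor of bone, had a log2 fold change of 0.30, Alpl, tissue-nonspecific alkaline phosphatase, of 0.21 and Spp1, osteopontin, of 0.12. Sp7, Bglap and Dmp1, markers of mature bone cells, were below the filter.

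**Figure D4:**
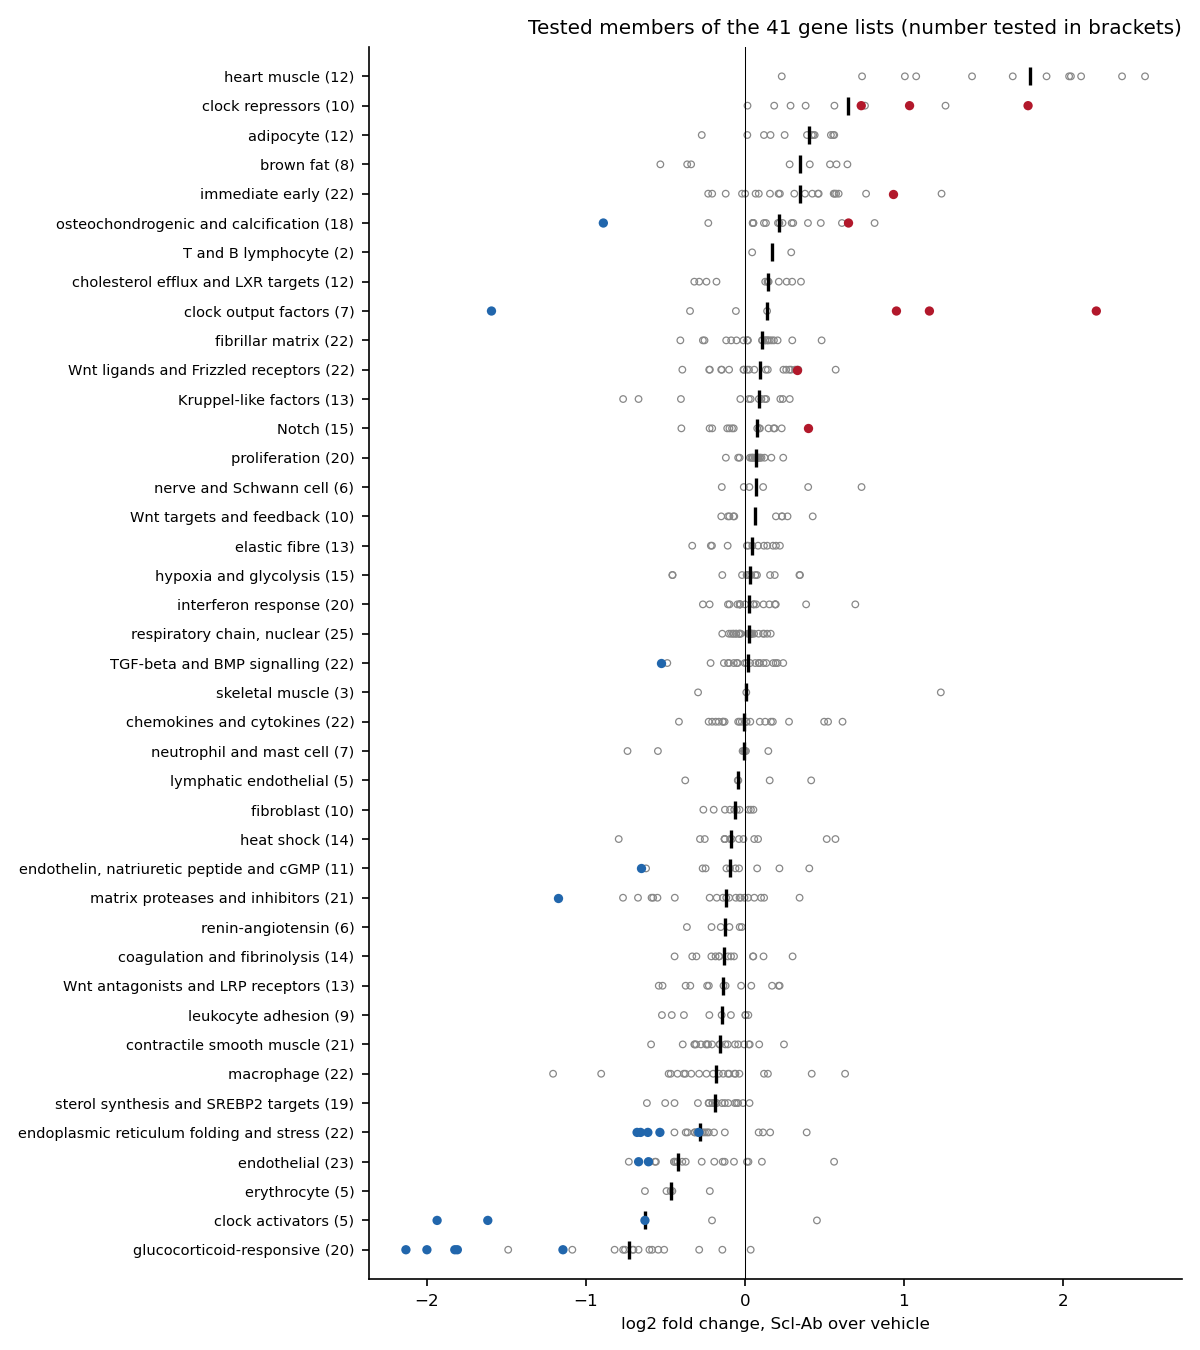
Log2 fold change of Scl-Ab over vehicle for the tested members of the 41 gene lists, ordered by the list median (black bar). Filled points are called genes (red higher, blue lower) and open points did not pass; the glucocorticoid-responsive list has the lowest median at -0.73 and the heart muscle list the highest at 1.79 with 0 of its 12 genes called.

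Genes of protein folding in the endoplasmic reticulum were lower: of 22 tested, 5 fell, against 2.29% called over all genes tested. Of the 22, 18 lay below 0, against 52.1% of all genes tested, and the median log2 fold change was -0.29. Hspa5 (chromosome 2, 34771970 to 34777547), the chaperone BiP, was 144 to 286 with Scl-Ab (median 201) and 236 to 435 with vehicle (median 309), a fall of 0.66 (SE 0.13, limma adjusted p = 0.0148). Manf, a secreted factor of the folding response, was 49.8 to 88.3 with Scl-Ab (median 63.3) and 68.0 to 137 with vehicle (median 99.0), a fall of 0.61 (limma adjusted p = 0.0242). Xbp1, the transcription factor of that response, fell by 0.29 (limma adjusted p = 0.0306), and Sdf2l1 and Creld2, 2 further folding factors, fell by 0.68 and 0.53. Ddit3 and Trib3, markers of prolonged stress, had log2 fold changes of 0.39 and 0.11 and did not pass. With equal totals per library 0 of the 22 were called and the median was -0.25.

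Of 23 endothelial genes, 2 fell, against 2.29% called over all genes tested. Of the 23, 19 lay below 0, against 52.1% of all genes tested, and the median log2 fold change was -0.42. Pecam1, the adhesion molecule CD31, was 38.2 to 105 with Scl-Ab (median 71.1) and 88.7 to 126 with vehicle (median 105), with 8 Scl-Ab libraries below every vehicle library (a fall of 0.67, limma adjusted p = 0.0383). Its call ended in 10 of the 19 fits that left out 1 library. Gja4, the gap junction protein connexin 37, was 14.7 to 26.9 with Scl-Ab (median 19.8) and 19.2 to 48.6 with vehicle (median 30.8), a fall of 0.61 (limma adjusted p = 0.0278). Nos3, the endothelial nitric oxide synthase, and Vwf had log2 fold changes of -0.60 and -0.73 without passing (limma adjusted p = 0.0611 and 0.0695). With equal totals 0 of the 23 were called. The median of the list was -0.03 within digits 12 to 15 and -0.68 within digits 27 to 33. Pecam1 had log2 fold changes of -0.21 within 12 to 15 and -0.99 within 27 to 33, and the difference between the ranges was not tested. In this bulk tissue fewer cells of a type and less RNA per cell cannot be told apart. Ece1, the enzyme that makes endothelin and is found in endothelium among other cells, was 26.1 to 53.3 with Scl-Ab (median 35.1) and 44.9 to 70.3 with vehicle (median 57.3), a fall of 0.65 (SE 0.12, limma adjusted p = 0.0128).

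Among 22 immediate early genes 1 was called: Egr3, at 3.30 to 15.6 with Scl-Ab (median 7.31) and 1.57 to 5.53 with vehicle (median 3.47), rose 1.91-fold (limma adjusted p = 0.0361). The list median was 0.34 and 18 of 22 lay above 0, against 47.9% of all genes tested. Cyr61, a matricellular protein that is also a YAP target, was 96.2 to 577 with Scl-Ab (median 112) and 46.5 to 129 with vehicle (median 62.9) and missed the threshold (limma adjusted p = 0.0552). The call of Egr3 ended in 9 of the 19 fits that left out 1 library. Jag1, a Notch ligand, rose 1.32-fold (limma adjusted p = 0.0461) as the only gene called among 15 of the Notch list, and Inhbb, an activin subunit, fell by 0.53 (limma adjusted p = 0.0383) as the only one among 22 of TGF-beta and BMP signalling. Those calls ended in 15 and 11 of the 19 fits. Over all genes tested 2.29% were called, so 1 call in a list of 15 or 22 genes says little about the list.

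Several lists of inflammation and of the vessel wall held no called gene with limma. These were 22 macrophage genes (6 at an unadjusted p under 0.05), 22 fibrillar matrix genes (0), 13 elastic fibre genes (0), 22 chemokine and cytokine genes (1), 20 interferon response genes (2) and 21 contractile smooth muscle genes (2). Over all genes tested 2.29% were called and 19.7% had an unadjusted p under 0.05. The absence of calls thus says little about lists of this size. Of the 22 macrophage genes 18 lay below 0 and 4 above (median -0.18), while 52.1% of all genes tested lay below 0. The highest fold change of that list was that of Ccr2, a receptor of inflammatory monocytes. Ccr2 was 5.49 to 20.3 with Scl-Ab (median 12.99) and 3.54 to 13.5 with vehicle (median 8.02; log2 fold change 0.63, limma adjusted p = 0.178). Gpnmb, a marker of lipid-laden macrophages, and Cd5l had log2 fold changes of -0.90 and -1.21 without passing. Lox, the collagen crosslinking enzyme, was 100.0 to 364 with Scl-Ab (median 156) and 158 to 445 with vehicle (median 215; limma adjusted p = 0.326). Myh11, smooth muscle myosin, differed by -0.06 on the log2 scale. Of the 21 contractile genes 17 lay below 0 and 4 above (median -0.16). A p that misses the threshold does not show equal levels: the median SE over genes was 0.10 on the log2 scale. Of 19 sterol synthesis genes 18 lay below 0 (median -0.19) and 0 were called with limma, 3 having an unadjusted p under 0.05.

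Markers of other tissues varied widely between libraries. Of 12 heart muscle genes tested, 12 had a log2 fold change above 0 (median 1.79), 10 had an unadjusted p under 0.05 and 0 were called with limma. With array weights limma called 11 of the 12, all higher, with a median of 2.70, and 1 was called in the fit on all 29 libraries and 1 with the range of digits as covariate. The summed level of all 16 heart muscle genes listed, 4 of them below the filter (Nppb, Myh7, Myl3 and Myl2), was 60.3 to 1235 in Scl-Ab libraries (median 469) and 38.7 to 592 in vehicle libraries (median 116), and 7 of the 16 were at 0 in some of the 19 libraries. Tnni3, cardiac troponin I, was 3.37 to 118 with Scl-Ab (median 36.5) and 0.927 to 57.5 with vehicle (median 4.97; limma adjusted p = 0.128). The mean log2 level of the list was 1.25 to 5.91 in Scl-Ab libraries, highest in replicate 10, and 1.20 to 4.92 in vehicle libraries. Its part in the other results was not tested. Adipocyte genes, with 12 of 12 tested and none at 0, summed to 1228 to 10438 with Scl-Ab (median 4597) and 891 to 13672 with vehicle (median 2347), and 0 were called with limma (0 at an unadjusted p under 0.05). With the adipocyte mean as a covariate 1154 genes were called, and all 309 were among them. The 5 erythrocyte genes had a median log2 fold change of -0.47 and 0 calls with limma (0 at an unadjusted p under 0.05).

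**Figure D5:**
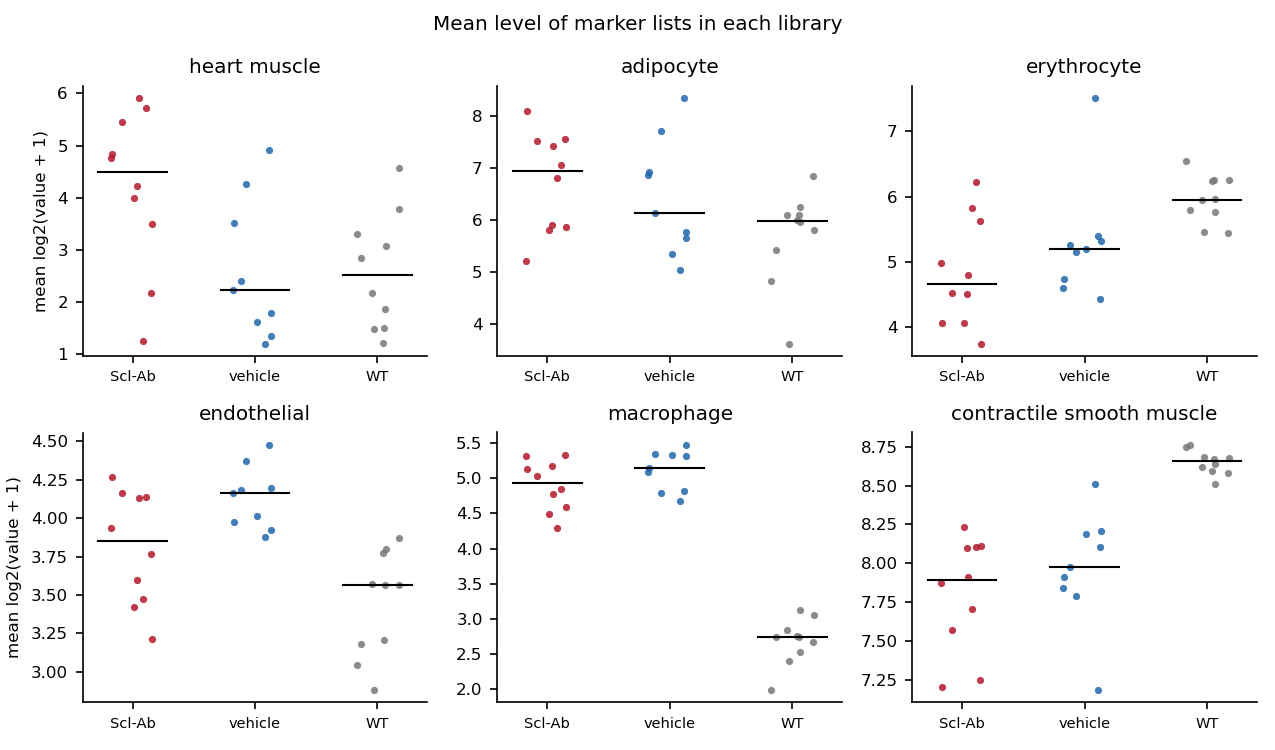
Mean log2(value + 1) of 6 marker lists in each library, with 1 point per library and a bar at the group median, for Scl-Ab (red), vehicle (blue) and WT (grey). The heart muscle and adipocyte lists vary most between libraries within a group, and the Scl-Ab and vehicle groups overlap for each of the 6 lists. The WT libraries lie below both groups for the macrophage list and above both for the contractile smooth muscle list.

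The gene model with the largest fall was Gm20412, a processed transcript on chromosome 2 (158117154 to 158117905), which was named after its values were seen. It was 0 to 14.8 in Scl-Ab libraries (median 0.109) and 7.00 to 41.1 in vehicle libraries (median 29.9), and the WT libraries were at 9.92 to 41.8. Of the 10 Scl-Ab libraries 8 lay below every vehicle library, and it fell by 3.30 on the log2 scale (SE 0.56, limma adjusted p = 0.00709). Whether the model shares reads with a near-identical sequence was not tested, and how such reads were counted is not given in the sources used here.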

How the data were processed

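Total RNA of the aortic arch was sequenced as stranded mRNA libraries per the labels. Each deposited file covers 1 library and lists an FPKM-like value (headed FPKQ, a name the file headers do not spell out) for 51456 gene symbols. The submitters' processing notes name DESeq2 1.10.1 and the build GRCm38 without saying what each was for. The aligner, the counting step and the gene annotation: not given in the sources used here. Depth was read from the step between low values of genes with 1 transcript, where 73.7 to 77.2% of values came within 0.05 of whole fragments. Total read numbers are unknown.

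The members and gene lists were chosen with earlier results of these data known. On log2(value + 1), limma 3.58.1 (R 4.3.3; eBayes with trend and robust options) fitted 2 group means over the 19 libraries, with Benjamini-Hochberg adjustment over 13510 genes. WT was left out of the fit because its median SD per gene was 0.139, against 0.231 with Scl-Ab and 0.199 with vehicle. The fit was tested on simulated data in which each gene was drawn on its own. Shifts shared by many genes of a library were not simulated. Lists are described by counts and medians, without a list test. The rule for named genes took Sost and Apoe, the 10 largest rises and 10 largest falls of called genes (higher group averaging 1 or more, gene models and receptor segments passed over), the 10 smallest p-values, all clock and glucocorticoid members, up to 3 called members or else the smallest p of every other list, and the 10 largest SDs; others are said to be named after their values were seen or are given as members of a list or count. Several are left out of the text for length. Gene coordinates, lengths and GC content came from GENCODE M21 (GRCm38) and promoters from RefSeq (GRCm38.p6). Correlations used 100000 permutations, two-sided. Alternatives changed the scaling, pseudocount, filter, test, weights, covariates and libraries. A result for 1 listed gene is not reported here.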

Additional observations from a re-analysis of the deposited data

Results flagged for a closer look

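Among 168 groups examined (43 called genes and 41 list means, in Scl-Ab and in vehicle), 18 held 1 library far from the others by Dixon's criterion, which chance alone meets in about 5% of groups. Scl-Ab replicate 10 stood high for Zbtb16 (44.8, the others 2.75 to 4.84), Fkbp5 (157, the others 8.23 to 15.5), Errfi1 (75.3, the others 11.3 to 27.2) and Fam107a (29.2, the others 1.25 to 2.78), and for the mean log2 level of the glucocorticoid-responsive list (6.29, the others 4.10 to 4.72).

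Vehicle replicate 5 stood high in the mean log2 level of the fibrillar matrix list (7.22, the others 6.61 to 6.85), the heat shock list (6.37, the others 5.74 to 6.06), the sterol synthesis list (3.84, the others 3.00 to 3.38), the erythrocyte list (7.50, the others 4.44 to 5.39) and the proliferation list (2.72, the others 1.81 to 2.14). Scl-Ab replicate 13 was high in the proliferation list (3.26, the others 1.80 to 2.34). Nerve and Schwann cell genes were high in Scl-Ab replicate 12 (4.48, the others 2.79 to 3.69) and in vehicle replicate 9 (3.68, the others 2.71 to 3.15). Renin-angiotensin genes were high in vehicle replicate 1 (3.72, the others 2.92 to 3.25).

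Scl-Ab replicate 17 was low for Gm13456 (1.15, the others 2.21 to 3.20) and for the list of Wnt antagonists and LRP receptors (4.04, the others 4.54 to 5.03). Slc25a34 was low in vehicle replicate 3 (6.82, the others 15.8 to 32.7), and Prrt2 was high in vehicle replicate 4 (4.61, the others 2.37 to 3.33).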

How the results depend on the processing

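The 309 calls (100 higher and 209 lower with Scl-Ab) stayed within 1.5 times of that number with median-ratio scaling (365), a pseudocount of 0.1 (303), the filter on the 19 libraries (304), the Wilcoxon test (412) and the digit range as covariate (348), although median-ratio scaling moved the higher calls to 169. More genes were called with all 29 libraries (1005; 356 higher, 649 lower), array weights (1133; 408 higher, 725 lower) and the adipocyte covariate (1154; 481 higher, 673 lower). Fewer were called with equal totals (93; 51 higher, 42 lower), without a filter (123; 42 higher, 81 lower) and with the clock index as covariate (0). In that last fit 300 of the 309 kept their direction, and among named genes Dbp (-0.31), Tef (-0.27), Nr1d2 (-0.092) and Apoe (-0.26) reversed; the cause was not tested, though the index contains 3 of them. Leaving out 1 library gave 113 to 419 calls, 38 to 149 higher and 75 to 311 lower, and 20 to 54 genes whose groups did not overlap, against 19 with all libraries and 8 with equal totals. The number of genes without overlap can only stay or rise when a library is left out. Of 43 named calls, equal totals kept 28, the fit of 16 libraries kept 26 (ending Dbp, Tef, Bmp6, Manf and others), the block 3, no filter 30 and the Wilcoxon test 35, which ended those of Zbtb16, Fkbp5, Errfi1 and Fam107a. Alternatives added after the data were seen were the GC trend (295), the fits within digits 12 to 15 (0) and 27 to 33 (93; 33 higher, 60 lower), and the 16 libraries whose digits occur in both groups (180; 42 higher, 138 lower). With those digits as a replicate block 7 genes were called, all lower. The deviations of same-numbered libraries from their group means correlated with r of -0.46 to 0.57. These values cannot tell whether such libraries share more than a number. Depth limits the low genes most; intervals for it were not computed.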

Other observations

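Nuclear-encoded respiratory chain genes differed little between the groups: of 25 tested, 14 lay above 0 and the median log2 fold change was 0.03, with 0 called by limma and 0 at an unadjusted p under 0.05. Proliferation genes had a median of 0.07, with 17 of 20 above 0 and 0 called by limma (0 at an unadjusted p under 0.05). Brown fat genes had a median of 0.34, with 0 of 8 called by limma and 1 at an unadjusted p under 0.05. Coagulation and fibrinolysis genes had a median of -0.13, with 0 of 14 called by limma and 2 at an unadjusted p under 0.05. All 6 renin-angiotensin genes tested lay below 0 (median -0.12), with 0 called by limma and 1 at an unadjusted p under 0.05. Over all genes tested, limma called 2.29% and 19.7% had an unadjusted p under 0.05, while 47.9% lay above 0 and 52.1% below.

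In WT libraries, which received neither AngII nor Scl-Ab, Dbp was 27.96 to 333 and Fkbp5 6.94 to 123. Every Scl-Ab value of Dbp lay inside the WT span, and the highest values of Fkbp5, 157 with Scl-Ab and 129 with vehicle, lay above it.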
